A study of Homo sapiens with 28 samples.

Results

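MBNL1 was lowered to 67.3% of its control mean in MOLM13 cells with the short hairpin shMBNL1-65 (sh65), and gene expression and splicing were read by RNA sequencing. The 4 sh65 libraries were compared with 3 libraries of the non-targeting hairpin shNT, so that 7 of the 28 libraries in the series carry the comparison. MOLM13 is an established acute myeloid leukemia line with the MLL-AF9 fusion. Hairpins were delivered by lentivirus, those against MBNL1 in the pLKO.1-puro vector. Per the labels, sh65 and control cells alike were infected and then selected with puromycin. The vector that carried shNT was not found in the labels or methods. The number of days between infection and harvest of the sh65 cells was not found in the labels or methods. The 7 libraries all come from a single cell line, and sh65 is a single hairpin. Outside this comparison, sh65 in MV4;11, an established MLL-AF4 leukemia line (3 libraries and 3 shNT), and a second hairpin, shMBNL1-64 (sh64), in MOLM13 (3 libraries and 3 shNT of an earlier set) are used only to show where values repeat or differ, and each has control libraries of its own. Nothing in the sources used here says that the libraries of a group came from separate cultures, so the p-values measure the spread between these libraries, which may be technical.

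MBNL1 belongs to the muscleblind family of RNA-binding proteins, which bind short YGCY motifs (a pyrimidine, GC, a pyrimidine) in pre-mRNA. Bound in the intron upstream of a cassette exon or within it, MBNL proteins tend to repress the exon. Bound in the downstream intron, they tend to promote its inclusion. Loss of their activity is best known from myotonic dystrophy, where expanded CUG repeats sequester the proteins and many exons revert to a fetal pattern. Splicing was read as the percent spliced in (PSI), the share of junction reads that include an exon or retain an intron, and expression as reads per kilobase of transcript and per unit of mapped reads (RPKM). For introns, cassette exons and alternative 3′ and 5′ sites, PSI is given so that a higher value means more inclusion. Other event types keep the deposited value and have no direction of inclusion. A difference in PSI is given in points.

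The 3 control columns carry no replicate number and are called shNT-a, shNT-b and shNT-c. They did not form a single cluster. Across genes, log2 expression of shNT-a correlated with sh65-2 at 0.993 and with sh65-1 at 0.982, but with shNT-b and shNT-c at 0.963 and 0.955, and sh65-3 and sh65-4 correlated at 0.995 with each other. The first principal component (46.0% of the variance) set sh65-1, sh65-2 and shNT-a apart from shNT-b and shNT-c, and the second (31.0%) set sh65-3 and sh65-4 apart. The files hold no read counts. In the expression values, the commonest smallest step above a gene's floor, which is larger in a shallower library, was 2.05 to 2.84 times the floor in sh65 and 3.46 to 4.20 times in shNT, so that by this measure every control library was shallower than every sh65 library. PSI was available for 78.0 to 81.4% of events in sh65 and 69.7 to 75.2% in shNT. Many results are therefore also given against shNT-a alone.

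MBNL1 itself (ENSG00000152601) read 8.26, 13.0, 14.3 and 15.4 RPKM in sh65-1 to sh65-4 and 20.2, 19.0 and 17.5 RPKM in shNT-a, shNT-b and shNT-c. Every sh65 library was below every control, at 43.6, 68.9, 75.3 and 81.1% of the control mean, and sh65-1 was the lowest. The means were 12.7 ± 3.13 RPKM (SD, n = 4) and 18.9 ± 1.34 RPKM (SD, n = 3), a log2 difference of -0.57 (SE 0.197). An exact permutation test over the 7 libraries (two-sided) gave p = 0.0286, which is the smallest p that 4 against 3 allows, and limma gave p = 0.0195 with an adjusted p of 0.209 over all genes, so MBNL1 did not pass the rule used for genes below. The same hairpin left 47.9 to 57.0% of control in MV4;11 and sh64 left 13.1 to 16.9% in MOLM13, and the difference between the hairpins in MOLM13 had an adjusted p of 0.0445 (limma interaction). The paralogs MBNL2 (0.408 to 0.555 RPKM in sh65 and 0.191 to 0.381 in shNT) and MBNL3 (0.202 to 0.563 and 0.134 to 0.262) were below the expression filter in both groups.

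MBNL1 protein is known to repress a 54-base cassette exon of its own transcript, and inclusion of that exon is known to favor nuclear localization of the protein. The exon lies at chr3:152164493-152164546 (GRCh37, plus strand) within the coding sequence, and is shown with the 100 intronic bases before it because the YGCY motifs (CGCC or CGCT or TGCC or TGCT on the transcribed strand, in capitals, overlaps counted) were concentrated there. The upstream 100 bases held 10 motifs, the exon 0 and the downstream 250 bases 0.
MBNL1, 100 bases before the exon: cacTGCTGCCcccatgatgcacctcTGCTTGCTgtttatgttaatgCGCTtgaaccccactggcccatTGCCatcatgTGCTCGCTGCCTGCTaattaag
MBNL1, exon: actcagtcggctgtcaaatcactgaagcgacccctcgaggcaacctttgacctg

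Inclusion of this exon was 45.9, 30.0, 22.4 and 22.8% in sh65-1 to sh65-4 and 11.3, 13.7 and 11.2% in the controls. All 4 sh65 libraries lay above all controls, and sh65-1, with the least MBNL1, had the highest inclusion. The difference was 18.2 points (SE 6.26) with an adjusted p of 0.577 (limma), and the exon did not pass the rule for calls used below. It was chosen for description after its values were seen. In MV4;11, sh65 gave 37.9, 36.9 and 28.7% against 11.8, 9.47 and 12.2%. The stronger knockdown with sh64 gave 91.3, 86.5 and 79.7% against 12.3, 13.1 and 13.0%, and the effect of sh65 was 54.8 points smaller than that of sh64 (adjusted p = 0.0254, limma interaction). Control inclusion lay between 9.47 and 13.7% in all 3 sets of shNT libraries.

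**Figure D1:**
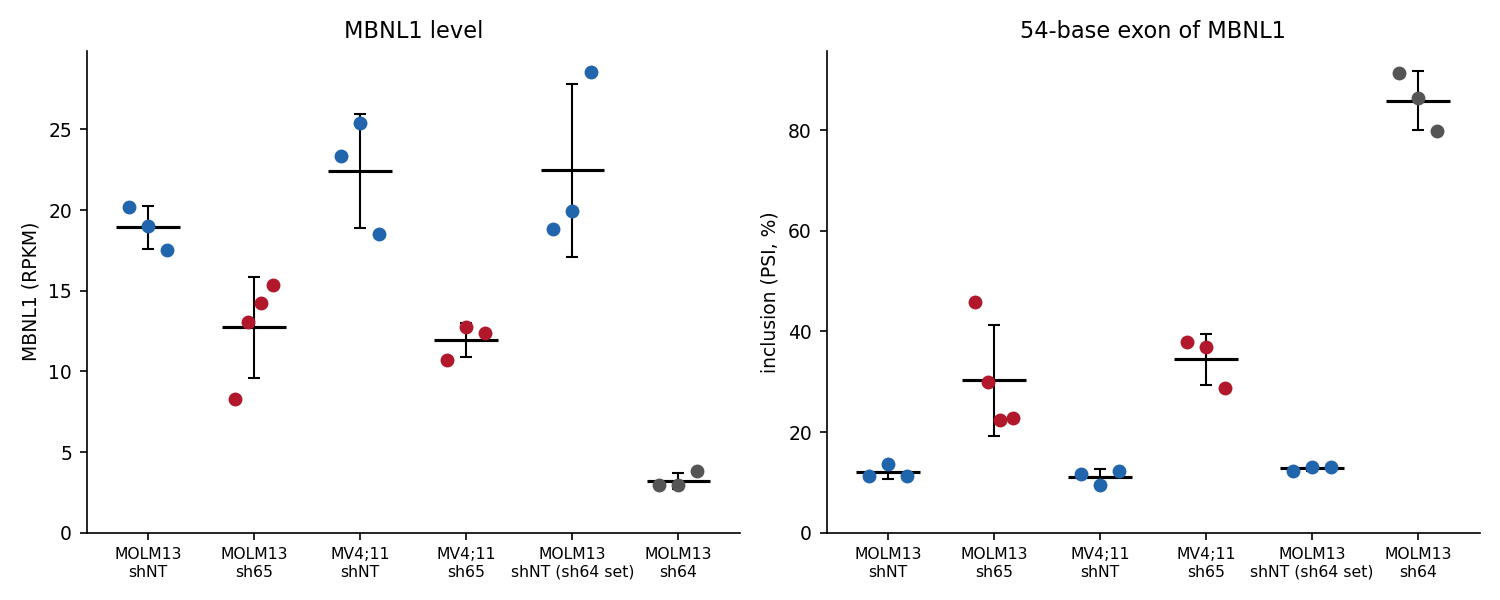
Left, MBNL1 level in RPKM; right, inclusion of the 54-base MBNL1 exon in percent; points are libraries, bars the mean and whiskers 1 SD, for sh65 in MOLM13 (n = 4), sh65 in MV4;11 and sh64 in MOLM13 (n = 3 each) beside their own shNT libraries (n = 3 each). The 4 sh65 libraries of MOLM13 sit between 8.26 and 15.4 RPKM and between 22.4 and 45.9% inclusion, and the 3 sh64 libraries between 2.94 and 3.80 RPKM and between 79.7 and 91.3% inclusion.

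Splicing was tested for 71650 events in 20876 junction clusters (groups of events that share junctions), and a cluster was called where an event had p at or under 0.01 (limma) and a difference over 10 points, which 1.28% of events did. In this way 624 clusters were called (2.99% of those tested), in 595 of 9508 genes (6.26%), and 17 clusters passed an adjusted p of 0.05 (0.0814%). In all 624 the 4 sh65 values lay on one side of the control values, against 7.63% of all tested events. The calls were made on these same values, so this separation follows largely from the rule and is not further evidence. Retained introns made up 238 of the called clusters and cassette exons 206, followed by 41 alternative 3′ sites and 25 alternative 5′ sites. The introns went almost entirely one way, with 223 retained more (93.7%; 2.67% of tested intron clusters) and 15 retained less (0.180%) in sh65, where 71.2% of all tested intron clusters with a direction were higher. Cassette exons were split evenly, with 108 included more (1.14% of tested cassette clusters) and 98 included less (1.03%), so that 52.4% were included more, against 49.0% of those tested. Without shNT-a the count of called clusters was 1045, of which 376 were among the 624, and 76.8% of the called introns were then retained more. Against shNT-a alone it was 776, of which 169 were among the 624, with 65.1% of the introns retained more.

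**Figure D2:**
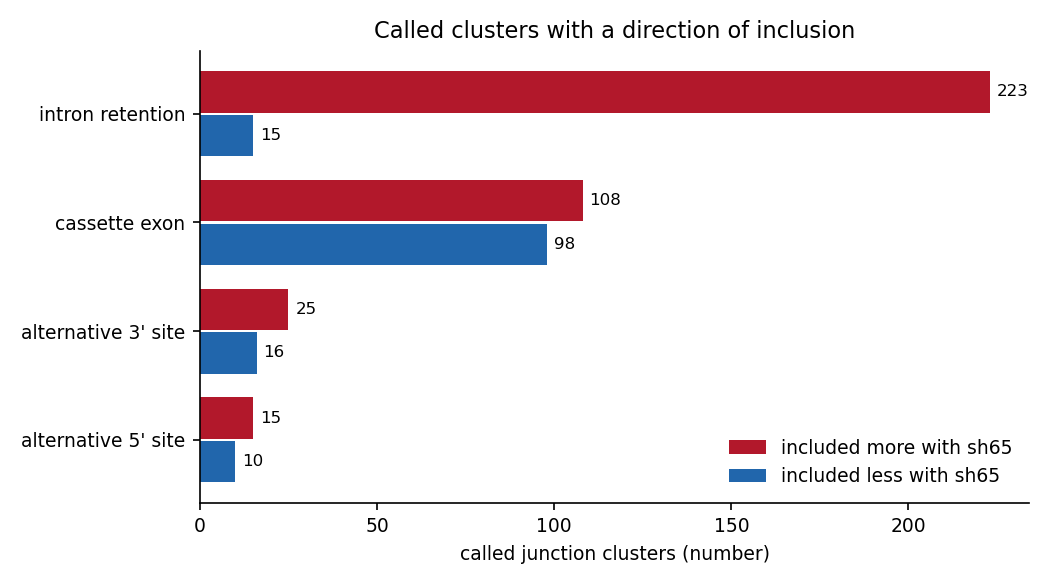
Number of called junction clusters by event type, included more (red) or less (blue) with sh65 than with shNT in MOLM13 (4 and 3 libraries). Intron clusters are 223 to 15, cassette exons 108 to 98, alternative 3′ sites 25 to 16 and alternative 5′ sites 15 to 10.

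Part of the called clusters changed in the same way in libraries that the MOLM13 sh65 comparison did not use. Of the 624 clusters, 36 were also called with sh65 in MV4;11 (5.77% of the 624 and 8.82% of the 408 called there, where 0.804% of tested events were called), 33 of them in the same direction, or 19 with a block for the replicate number in MV4;11. With sh64 in MOLM13, 58 were called (9.29% of the 624 and 7.97% of 728, where 1.73% of tested events were called), 56 in the same direction. The background shares here are of events, not clusters. For the 8.82 and 7.97%, the share in the same unit is the 2.99% of tested clusters called with sh65 in MOLM13. The set called in all 3 comparisons in the same direction held 17 clusters, of which 15 were cassette exons and 0 were introns, and in 16 of the 17 the difference was larger with sh64 than with sh65. These 3 comparisons share no libraries.

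Among the exons lost on knockdown were those of INF2, NUMA1, GIT2 and LRRFIP2. INF2, a formin that nucleates and severs actin, had a cassette exon at 26.5, 27.2, 33.3 and 37.3% in sh65 and 76.7, 90.2 and 82.0% in shNT, a difference of -51.9 points (SE 4.30, adjusted p = 0.0661, limma). The exon of NUMA1, a spindle-pole protein, was included at 22.2, 40.5, 42.2 and 39.1% in sh65 and 70.2, 63.0 and 66.9% in shNT, with sh65-1 lowest. GIT2, a GTPase-activating protein for ARF, had its exon at 25.9, 35.3, 34.1 and 27.9% in sh65 and 68.4, 58.5 and 52.1% in shNT. None of these groups overlapped, and the differences of -51.9, -30.7 and -28.8 points in MOLM13 stood beside -49.3, -42.1 and -30.4 points in MV4;11. LRRFIP2 read 45.7, 58.1, 57.1 and 53.9% in sh65 and 91.5, 80.3 and 77.4% in shNT. Smaller losses repeated in PLEKHM2, an adaptor for kinesin on lysosomes (-16.8 points), CTSC, a lysosomal protease (-15.8), and ARFGAP2, a regulator of COPI vesicles (-12.0).

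Exons gained on knockdown included those of NUMB, ACTN4, PTK2B and APP. NUMB is an endocytic adaptor and inhibitor of Notch signaling, and its exon read 39.0, 29.6, 27.5 and 24.0% in sh65 and 0.870, 11.1 and 12.0% in shNT (22.0 points, SE 4.63). ACTN4, an actin-crosslinking actinin, read 31.4, 24.2, 21.7 and 29.0% in sh65 and 2.86, 9.01 and 9.07% in shNT (19.6 points, SE 3.01). In both genes sh65-1 was the highest library and shNT-a the lowest. The exon of PTK2B, a focal adhesion kinase family member, rose by 21.0 points and that of APP, the amyloid precursor protein, by 19.3 points. CARM1, an arginine methyltransferase and transcriptional coactivator, rose by 20.3 points, LRCH4 by 24.2 points, and MLST8, a subunit of both mTOR complexes, by 15.2 points. FAM122B shifted to another 3′ site by 35.9 points. The difference between the hairpins passed an adjusted p of 0.05 for ACTN4 (0.000308), LRRFIP2 (0.0200) and LRCH4 (0.0391), each moved further by sh64; for the other 14 it did not, and for none of the 17 did the difference between MOLM13 and MV4;11, which 21 events (0.0304%) passed.

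**Figure D3:**
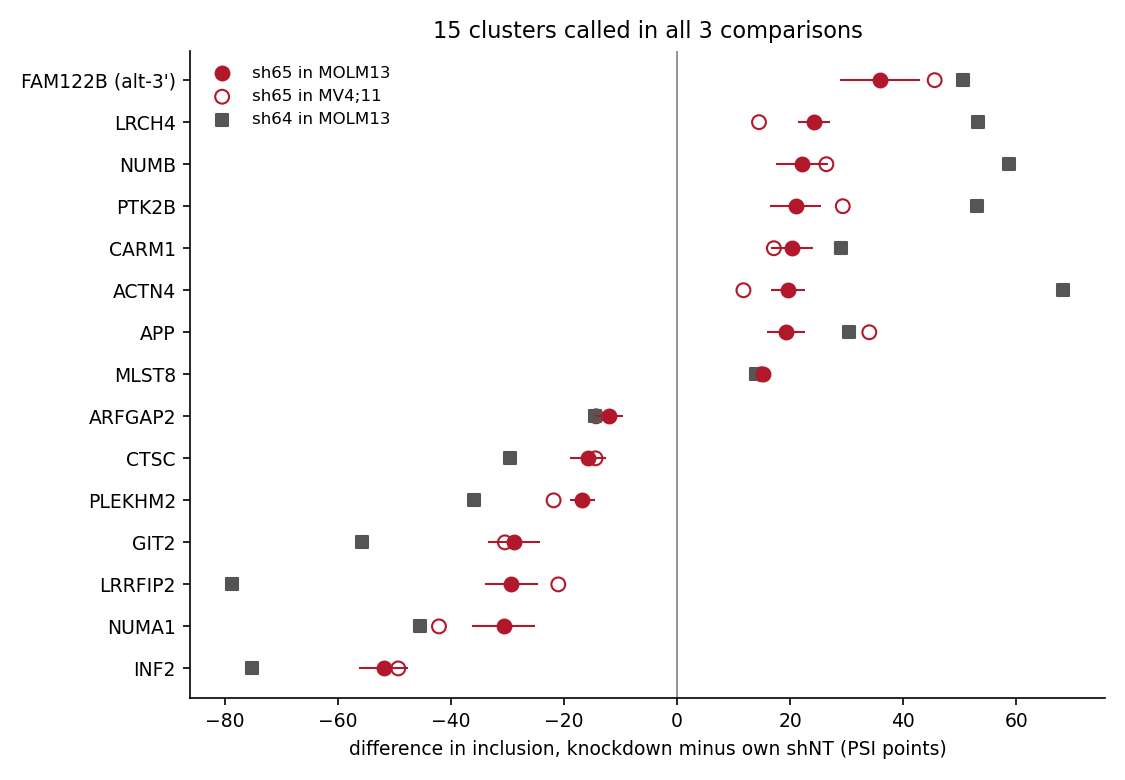
Difference in inclusion (PSI points, knockdown minus its own shNT libraries) for 15 of the 17 clusters called in all 3 comparisons: sh65 in MOLM13 (filled circles, bars 1 SE), sh65 in MV4;11 (open circles) and sh64 in MOLM13 (squares). All points of a gene lie on the same side of 0, from -51.9 points (INF2) to 35.9 points (FAM122B) for sh65 in MOLM13, and the square lies farther out than the filled circle for every gene except MLST8.

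The sequences of some of these exons are shown because they hold or adjoin many YGCY motifs. For lost exons the exon and the 100 intronic bases after it are given, on GRCh37 and in the direction of transcription, with motifs in capitals as above. The exons are NUMA1 at chr11:71723447-71723488, GIT2 at chr12:110383065-110383154 and CLASP1 at chr2:122203025-122203072, all on the minus strand and in coding sequence. CLASP1, a microtubule plus-end protein whose exon was called in MOLM13 with sh65, read 16.2, 10.5, 18.1 and 12.7% in sh65 and 48.5, 37.9 and 32.4% in shNT.
NUMA1, exon: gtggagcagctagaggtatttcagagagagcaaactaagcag
NUMA1, 100 bases after the exon: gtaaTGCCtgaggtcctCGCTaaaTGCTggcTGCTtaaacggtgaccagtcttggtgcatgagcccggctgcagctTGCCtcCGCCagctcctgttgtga
GIT2, exon: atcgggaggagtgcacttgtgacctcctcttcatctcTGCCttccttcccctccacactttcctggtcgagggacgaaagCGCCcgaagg
GIT2, 100 bases after the exon: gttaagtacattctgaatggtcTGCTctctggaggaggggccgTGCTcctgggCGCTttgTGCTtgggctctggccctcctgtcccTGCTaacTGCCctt
CLASP1, exon: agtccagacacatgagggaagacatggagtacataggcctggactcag
CLASP1, 100 bases after the exon: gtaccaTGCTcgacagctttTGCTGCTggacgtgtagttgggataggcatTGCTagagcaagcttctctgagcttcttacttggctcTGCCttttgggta

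In the 250 bases on either side, NUMA1 had 9 motifs downstream and 3 upstream, GIT2 had 9 and 0, and CLASP1 had 8 and 1. Of lost exons not shown, INF2 had 9 and 3 and LRRFIP2 had 3 and 3. Gained exons not shown were ACTN4 with 10 downstream and 4 upstream, MLST8 with 10 and 5, CARM1 with 12 and 9, and LRCH4 with 8 and 10. The annotated LRCH4 exon was not in coding sequence and was followed by TT instead of GT, so its downstream bases may not be an intron. Among gained exons, MAP3K4 (chr6:161519310-161519459, plus strand) had 16 motifs within its 150 bases and NUMB (chr14:73745989-73746132, minus strand) had 7 within 144 bases. Both are in coding sequence, and both are shown whole.
MAP3K4, exon: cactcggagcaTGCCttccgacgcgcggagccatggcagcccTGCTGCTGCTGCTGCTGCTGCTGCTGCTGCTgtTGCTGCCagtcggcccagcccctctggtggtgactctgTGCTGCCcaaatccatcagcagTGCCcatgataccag
NUMB, exon: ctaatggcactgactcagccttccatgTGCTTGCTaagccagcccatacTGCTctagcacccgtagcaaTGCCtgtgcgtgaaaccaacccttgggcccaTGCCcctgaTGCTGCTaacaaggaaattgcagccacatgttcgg

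The 15 lost exons also called with sh64 had on average 6.27 motifs in the 250 bases downstream and 2.87 upstream, with 0.867 in the exon, and 12 of them (80.0%) held more downstream than upstream. The 15 gained exons also called with sh64 had 5.80 downstream, 5.47 upstream and 5.47 in the exon, and 8 of them (53.3%) held more downstream than upstream. Over 6339 tested exons the means were 3.06 downstream, 3.08 upstream and 2.20 in the exon, and 41.6% held more downstream than upstream. Over all exons called with sh65 and found in the annotation, 42.4% of 85 lost and 41.1% of 95 gained held more downstream. All 15 of the repeated lost exons and 10 of the 15 repeated gained exons were a multiple of 3 bases long, against 40.8% of tested exons. These are counts of letters, given without a test.

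MAP3K4, a kinase upstream of p38 and JNK, had the called cassette exon with the smallest p among those measured in every library. It read 55.7, 51.7, 55.2 and 56.6% in sh65 and 22.1, 19.1 and 22.1% in shNT, a difference of 33.7 points (SE 1.46, adjusted p = 0.00980, limma). The 4 sh65 libraries were close together and far from all 3 controls. The same exon was 26.1 points higher in MV4;11, where it was not called, and 62.9 points higher with sh64, where the difference between hairpins passed (adjusted p = 0.0322). MLST8 was the other such exon past the adjusted threshold, at 95.4, 92.7, 93.7 and 93.1% in sh65 and 78.1, 80.5 and 77.0% in shNT, and changed by nearly the same amount in each comparison (15.2, 14.9 and 13.9 points). Cassette exons of LRIG2 and LOXL4 also passed, but with only 2 measured control libraries each.

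Of the 17 clusters past the adjusted threshold, 11 were introns, and all 11 were retained more with sh65. The intron of ATG9A, a lipid scramblase of autophagy, was at 15.2, 16.2, 15.3 and 15.2% in sh65 and at 0 in all 3 controls (adjusted p = 0.000763, limma). SETDB1, a histone H3 lysine methyltransferase, retained an intron at 11.4, 12.4, 12.7 and 13.2% in sh65 and at 0.980, 0 and 0% in shNT. CUL7, a cullin scaffold of a ubiquitin ligase, retained an intron at 40.2, 32.3, 41.5 and 35.0% in sh65, and DLL1, a Notch ligand, at 16.9, 13.1, 16.9 and 17.0%, with every control at 0 for both. The others were in EML3, NSMF, CCDC78, OPLAH, COMTD1, ZNF521 and MROH6, where MROH6 was the largest at 66.2, 63.2, 74.5 and 76.8% against 0 in all 3 controls. Elsewhere the MROH6 intron was at 87.4% in the MV4;11 controls and 65.4% in the earlier MOLM13 controls, and the difference between lines had an adjusted p of 0.0167 (limma interaction). Events at 0 in every control have no measured spread in that group. The CUL7 intron (149 bases, chr6:43006431-43006579, minus strand, GRCh37) and the DLL1 intron (118 bases, chr6:170594224-170594341, minus strand) are shown because they are short introns read through in all 4 sh65 libraries, with the first and last 2 bases, the GT and AG of the splice sites, in capitals.
CUL7, intron: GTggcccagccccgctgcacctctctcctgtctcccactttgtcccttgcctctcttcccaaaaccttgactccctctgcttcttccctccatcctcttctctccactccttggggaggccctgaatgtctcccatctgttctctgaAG
DLL1, intron: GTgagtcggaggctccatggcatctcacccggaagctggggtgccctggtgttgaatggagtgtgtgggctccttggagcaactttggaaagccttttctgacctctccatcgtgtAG

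Among the other called events with the largest differences, the introns of SLC4A11, a membrane transporter (65.6, 46.7, 52.8 and 52.0% in sh65 and 0 in all 3 controls), and KIF18B, a mitotic kinesin (42.0, 44.4, 65.8 and 68.1% and 8.11, 0 and 6.67%), were retained more. The cassette exons of MPRIP, a regulator of myosin phosphatase (17.6, 32.7, 25.4 and 32.3% in sh65 and 58.1, 85.7 and 72.7% in shNT), PPFIBP1, a liprin (1.02, 15.2, 28.6 and 2.56% and 56.7, 46.2 and 52.9%), and NAPB, a SNARE disassembly factor (11.1 to 21.7% in sh65 and, in shNT-b and shNT-c, 78.6%), were included less. With sh64 the MPRIP exon moved by -57.9 points and the PPFIBP1 exon by -20.5 points, whereas that of NAPB moved the other way, by 23.4 points.

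Introns were also compared as a whole. Over 21127 introns measured in all 7 libraries, mean inclusion was 7.46, 7.37, 8.82 and 8.96% in sh65-1 to sh65-4 and 5.91, 6.02 and 5.83% in shNT-a, shNT-b and shNT-c. The groups did not overlap, and sh65-3 and sh65-4 were the highest, although sh65-1 had the least MBNL1. The means were 8.15 ± 0.854% (SD, n = 4) and 5.92 ± 0.0961% (SD, n = 3), a difference of 2.23 points (exact permutation test over libraries, two-sided, p = 0.0286, the smallest possible). Over 20984 cassette exons the means were 62.0 to 62.2% in sh65 and 61.7 to 62.3% in shNT, a difference of 0.0839 points (exact permutation p = 0.686). The share of introns at 0 was 54.5 to 57.9% in sh65 and 66.9 to 72.8% in the shallower controls. Over the 3690 introns above 0 in all 7 libraries, the means were 27.5, 27.7, 30.4 and 30.9% in sh65 and 25.3, 26.4 and 26.8% in shNT, higher in all 4 sh65 libraries by 2.97 points on average (exact permutation p = 0.0857).

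**Figure D4:**
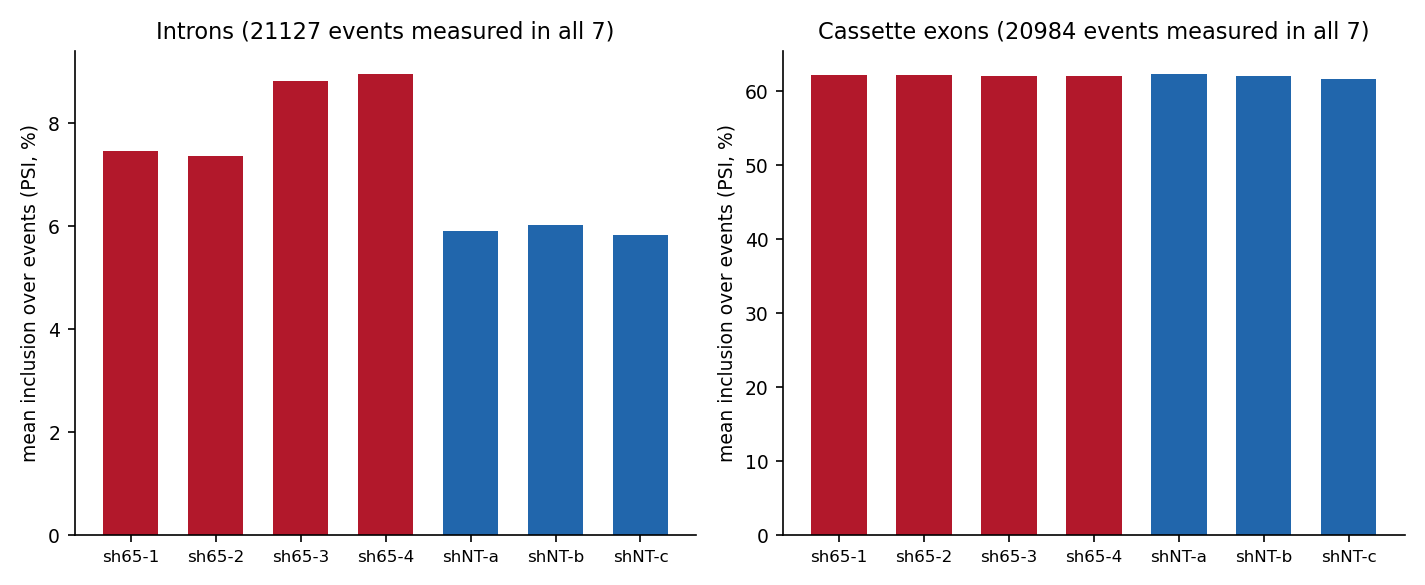
Mean inclusion (PSI, percent) per library over 21127 introns (left) and 20984 cassette exons (right) measured in all 7 libraries, for sh65 (red) and shNT (blue) in MOLM13. The intron means of the 4 sh65 libraries (7.37 to 8.96%) all exceed those of the 3 controls (5.83 to 6.02%), and the cassette exon means lie between 61.7 and 62.3% in all 7.

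Of the 223 introns called as retained more, 85 (38.1%) were at 0 in every measured control, 138 were above 0 in at least 1 control, 127 were above 0 in shNT-a, and 74 were above 0 in every library. For comparison, 59.1% of 23454 tested introns were at 0 in every control and 42.1% were at 0 in every sh65 library. The highest library was sh65-3 or sh65-4 in 179 of the 223 and sh65-1 in 22. For 105 in annotated genes, the retained border shared an end with the spliced junction, and length was read as the span of that junction. The median span was 317 bases, against 368 for 3435 tested introns, and the median GC content 56.5% against 51.2%. Some spans reached past the next exon, as in DNM1 (9631 bases). Of 213 genes with such an intron and a tested level, 16 rose in total expression (7.51%, against 1.76% of all tested genes) and 1 fell, and the median log2 difference was 0.25 against 0.05. The share of introns at 0 differed between the groups as depth did, and the part of depth in these calls was not tested beyond the introns above 0 in every library.

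Few introns were called in a further comparison. With sh65 in MV4;11, 9 of the called introns were called again, 8 of them in the same direction, and 14 with sh64, 13 of them in the same direction. Those retained more in both lines included MOV10, an RNA helicase (17.6, 12.3, 23.0 and 23.5% in sh65 and 0 in all 3 controls), GGA1, a sorting adaptor of the trans-Golgi network (14.2, 19.6, 22.4 and 17.0% and 0, 10.0 and 0%), PACS2, BMF, FAM214B, PPAPDC1B and MPPE1. BMF encodes a pro-apoptotic BCL2 family member, and its intron rose by 15.3 points in MOLM13 and by 15.1 points in MV4;11. Of the 223, 70.3% of those measured were also higher with sh65 in MV4;11 (39.8% of all tested intron clusters kept their direction there) and 79.8% with sh64 (47.2%). Clusters with a difference of 0 in either comparison counted as not keeping their direction. The median change in that direction over all tested intron clusters was 0 in both comparisons, so the remaining clusters did not all reverse. Among called cassette exons, 70.4% of the gained and 66.3% of the lost kept their direction in MV4;11 (53.5% of all tested), and 58.2% and 68.1% with sh64 (52.7%).

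The cassette exons that responded to sh64 gave a scale for the partial knockdown. With the sh64 controls set to 0 and the sh64 mean to 100, the 186 exons lost with sh64 put the sh65 libraries at 32.8, 24.4, 23.5 and 23.7 and their own controls at 3.65, 2.28 and 3.19. The 102 exons gained with sh64 put them at 52.6, 36.7, 32.8 and 37.4, with controls at 6.70, 6.01 and 16.4. In both sets sh65-1, the library with the least MBNL1, moved furthest. The 149 introns gained with sh64 put the sh65 libraries at 13.0, 11.6, 28.1 and 26.9 and the controls at -5.01, -10.7 and -12.3, with sh65-3 and sh65-4 furthest. These positions are a description, and no test was made of the relation to MBNL1.

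Several genes that the study lists as splicing targets in these cells were called here too; the lists were drawn up on libraries of this series and are not independent evidence. Of 9 small GTPase regulators, 4 had a called event (44.4%, against 6.26% of all genes), namely ARAP1, ARHGEF40, DENND4B and DNM2. Of 11 membrane trafficking genes, 5 had a called event, namely AAK1, AP1G2, DENND4B, DNM2 and SCARB1. DNM2, the dynamin that pinches off endocytic vesicles, shifted between alternative exons from 12.2, 7.65 and 9.67% in shNT to 27.5, 24.1, 21.7 and 19.3% in sh65, 13.3 points against 62.5 points with sh64 (adjusted p of the difference 7.19e-05). The DNM2 event is of a type without a direction of inclusion. Of 15 myotonic dystrophy targets with a tested event, 3 were called (ARHGEF7, CLASP1 and NUMA1), and of 7 MBNL1 targets named by the study, 3 were, among them INF2 and NUMB. Of 12 SR proteins, the serine/arginine-rich splicing factors, 2 were called: an intron of SRSF11 was retained more by 13.3 points and one of SRSF1 less by 15.4 points. HNRNPL was the only called member of 13 hnRNP genes (-14.3 points). In the MLL and SETD1 chromatin complexes, 2 of 19 were called (CXXC1, 11.7 points, and MLLT10, 15.7 points), and in the MLL fusion program 0 of 14 by the same limma rule, where 6 had an event with an unadjusted p under 0.05. In DOT1L, the histone H3 lysine 79 methyltransferase, the event with the lowest p changed by 3.85 points (adjusted p = 0.322, limma) and was under the 10-point threshold.

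Gene expression was tested with limma for 10156 genes with a mean of at least 1 RPKM in either group, on log2(RPKM + 1), a scale that understates the change of low genes. With p at or under 0.01 and at least 1.5-fold, 329 genes were called (3.24%), 179 that rose (1.76%) and 150 that fell (1.48%). The sh65 and control libraries did not overlap for 314 of the 329, against 17.4% of all tested genes, which again follows largely from the rule for calls. At an adjusted p under 0.05, 1 gene remained (0.00985%), and 1851 genes had an unadjusted p under 0.05. Over all tested genes the median log2 difference was 0.05, and with each library rescaled by its median ratio the split was 130 that rose and 192 that fell. The count depended on the libraries: it was 898 without shNT-a, 175 without shNT-b, 157 without shNT-c, 199 without sh65-3, 193 without sh65-4, and 60 against shNT-a alone, of which 24 were among the 329. In bulk RNA fewer cells of a type and less RNA per cell cannot be told apart. In MV4;11, 85 of the 329 were also called with sh65 (25.8% of the 329 and 25.2% of the 337 called there, where 3.32% of the same genes were called), and all 85 went the same way, 20 up and 65 down. The median size of the log2 difference in these 85 was 0.81 in MOLM13 and 0.76 in MV4;11.

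The gene past the adjusted threshold was NPTN, which encodes neuroplastin, an immunoglobulin-family membrane glycoprotein. It read 4.16, 4.27, 3.53 and 3.52 RPKM in sh65 and 10.5, 13.5 and 13.7 RPKM in shNT, a log2 difference of -1.48 (SE 0.133, adjusted p = 0.0265, limma). In MV4;11 it fell from 10.5 ± 0.842 to 3.75 ± 0.0455 RPKM (SD, n = 3 each), while with sh64 in MOLM13, where MBNL1 was lower, it read 17.5 ± 0.306 against 11.6 ± 0.607 RPKM. The difference between the hairpins had an adjusted p of 0.000569 (limma interaction), and of 0.00156 with the replicate block for the sh64 pairs. LITAF, a regulator of endosomal sorting, read 2.31, 2.17, 1.71 and 1.60 RPKM in sh65 and 7.28, 6.02 and 5.37 RPKM in shNT. SEC23A, a coat subunit of COPII vesicles, read 3.66, 4.17, 3.41 and 3.17 RPKM and 7.64, 7.42 and 7.95 RPKM. Both fell in MV4;11 too (log2 differences of -1.09 and -1.07) and differed between the hairpins at an adjusted p of 0.0495, with sh64 at 0.19 and 0.10. In all, 10 genes differed between the hairpins (0.0985% of those tested; 50 with the replicate block), MBNL1 among them, and 0 genes between the lines at an adjusted p under 0.05 in limma, where 489 had an unadjusted p under 0.05.

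Of the 65 genes that fell in both lines, PRDX3, the mitochondrial peroxiredoxin, read 17.4, 39.4, 38.6 and 43.0 RPKM in sh65 and 100.8, 126.6 and 94.5 RPKM in shNT, a log2 difference of -1.67 (SE 0.296, adjusted p = 0.143, limma), and fell by 1.88 on the log2 scale in MV4;11. MTHFD2, the mitochondrial folate enzyme, read 10.1, 40.0, 20.4 and 20.9 RPKM in sh65 and 72.0, 47.0 and 75.2 RPKM in shNT. SAMHD1, a deoxynucleotide triphosphohydrolase, read 6.84, 10.6, 13.5 and 14.1 RPKM in sh65 and 19.6, 45.3 and 34.1 RPKM in shNT. In these 3 genes sh65-1 was the lowest library and no sh65 value reached a control. With sh64 their log2 differences were -0.08, -0.10 and 0.22. Further falls in both lines were seen in YBX3, a cold-shock RNA-binding protein (-1.07 in MOLM13 and -0.80 in MV4;11), the deubiquitinase UCHL5 (-1.03 and -0.96), the translation factor EIF4G2 (-0.90 and -0.93), ezrin (EZR, -0.90 and -0.63), and SUZ12, a core subunit of Polycomb repressive complex 2 (-0.60 and -0.65). Of the 85 genes called in both lines, 68 (80.0%, against 62.0% of all tested genes) had the same sign with sh64. Of the 85, 2 were called the same way there, or 31 with the replicate block. Of all 329, 7 were called with sh64 (2.13% of the 329 and 2.88% of 243, background 2.39%), 6 in the same direction; with the replicate block it was 74 (22.5% of the 329 and 10.6% of 697, background 6.86%), 70 in the same direction. ALOX12, the gene that fell most in MOLM13 (-1.74), and MT1F, a metallothionein (-1.08), were not called in MV4;11 (0.39 and 0.26).

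Many genes of mitosis fell, and the number depended on the libraries compared. Of 20 G2/M and mitosis genes, 13 fell and 0 rose (1.48% of all genes fell), 19 were lower in sh65, and the median log2 difference was -0.80 against 0.05 over all genes. PLK1, a mitotic kinase, read 23.9, 35.3, 12.7 and 11.5 RPKM in sh65 and 39.1, 43.2 and 60.8 RPKM in shNT. CDK1, the mitotic cyclin-dependent kinase, read 15.8, 22.2, 12.6 and 13.2 RPKM and 25.1, 35.9 and 35.8 RPKM. UBE2C, a ubiquitin-conjugating enzyme of the anaphase-promoting complex, read 18.6, 27.3, 10.5 and 9.63 RPKM and 36.2, 36.9 and 42.4 RPKM. In each gene sh65-2 was the sh65 library nearest to the controls and sh65-3 and sh65-4 were the lowest. Other members that fell were CDC20 (-1.02), CCNB1 (-1.07), TOP2A (-0.98), NUSAP1 (-0.94), AURKA, AURKB, BUB1B, TTK, KIF23 and TPX2, while MKI67 (0.06) and CENPF (-0.07) were near 0. Leaving out 1 library gave 17 without sh65-2, 10 without shNT-a, and 2 to 4 without any of the others. Against shNT-a alone 19 of the 20 were still lower and the median was -0.62, but 0 were called by limma and 0 had an unadjusted p under 0.05. With the 3 earlier MOLM13 controls added, 0 were called and 2 had an unadjusted p under 0.05. The median of sh65-1 and sh65-2 against shNT-a was -0.28. Outside the list, NUF2 (-1.18), a kinetochore subunit, BIRC5 (-1.10), survivin, and HMMR (-1.02) also fell in both lines.

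In MV4;11 the median of the 20 mitosis genes was -0.43 with sh65 and 4 fell, and with sh64 in MOLM13 it was -0.65, where 13 fell with the replicate block and 0 without it. Of 20 DNA replication and G1/S genes, 1 fell with sh65 in MOLM13 and 19 were lower, with a median of -0.70, and in MV4;11 11 fell with a median of -0.61. The gene that fell in MOLM13 was MCM7, a subunit of the replicative helicase, at 52.5, 85.3, 86.0 and 85.6 RPKM in sh65 and 108.5, 135.3 and 135.0 RPKM in shNT. Thymidine kinase TK1, outside that list, fell by 1.10 on the log2 scale in MOLM13 and by 0.60 in MV4;11. Against shNT-a alone the G1/S median was -0.20.

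**Figure D5:**
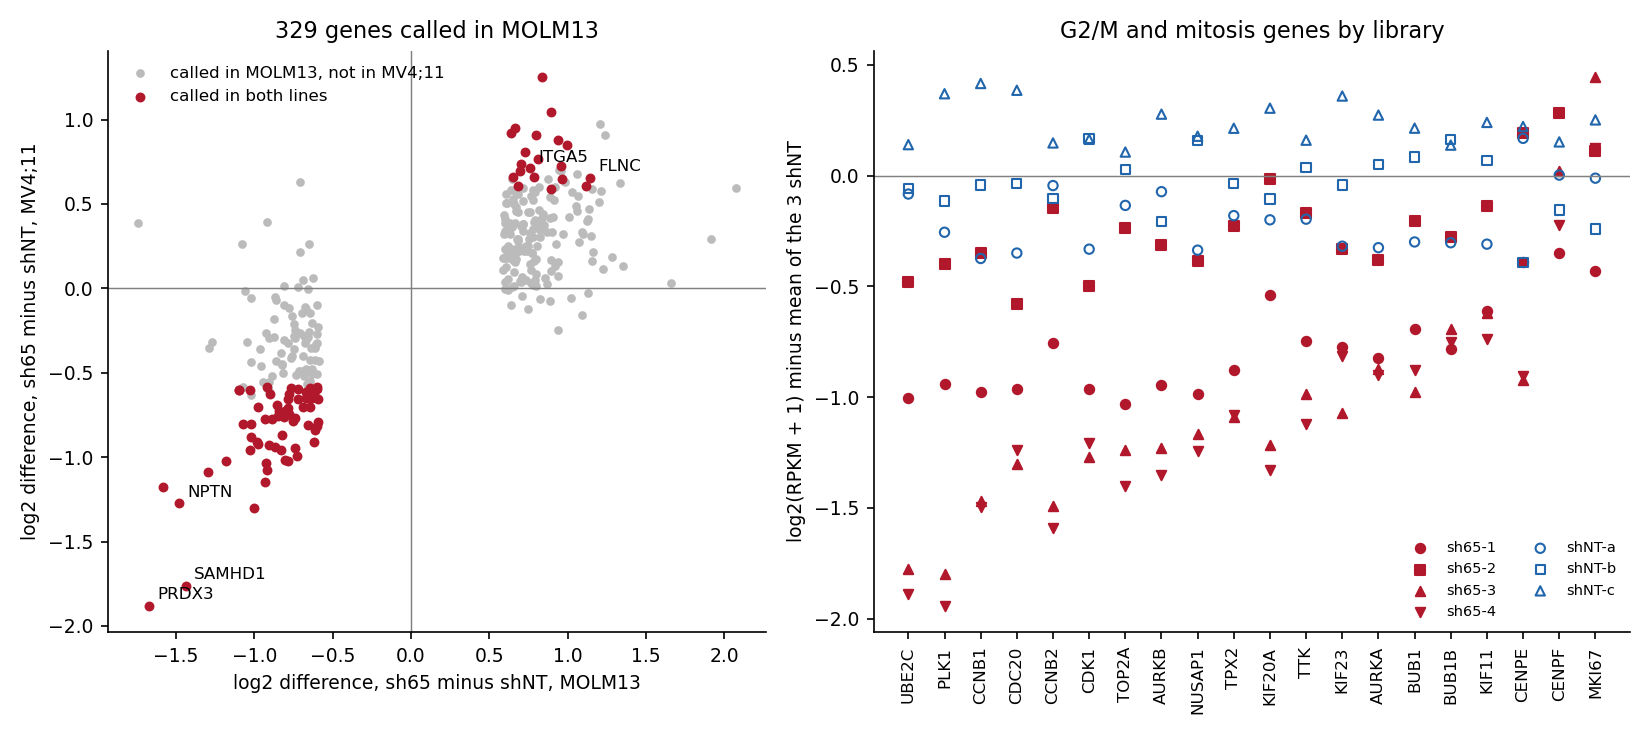
Left, log2 difference (sh65 minus shNT) in MOLM13 and in MV4;11 for the 329 genes called in MOLM13, with the 85 called in both lines in red. Right, log2(RPKM + 1) minus the mean of the 3 shNT libraries for 20 G2/M and mitosis genes in each of the 7 libraries; sh65-3 and sh65-4 are lowest for PLK1 and UBE2C, and sh65-2 lies near shNT-a for TTK and KIF23.

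Of the 20 genes that rose in both lines, ITGA5, the alpha subunit of the fibronectin receptor, read 166.9, 139.8, 115.1 and 118.9 RPKM in sh65 and 96.8, 70.8 and 70.4 RPKM in shNT, a log2 difference of 0.76 (SE 0.176, adjusted p = 0.143, limma) and 0.71 in MV4;11. All 4 sh65 libraries exceeded all controls, and shNT-a was the highest control. FLNC, an actin-crosslinking filamin, rose by 1.14 in MOLM13 and 0.66 in MV4;11, ADAMTSL4, a microfibril-associated matrix protein, by 1.00 and 0.85, and CDC42BPB, a kinase downstream of CDC42, by 0.66 and 0.95. The largest rises in MOLM13 were in the non-coding RNAs RP11-817O13.6 (2.07) and LINC00106 (1.92). RPS26 (1.66), HERC2P3 (1.36), GOLGA8M (1.34), HERC2P2 (1.29), GOLGA8J (1.21), USP32P3 (1.16) and HERC2P9 (1.16) also had high values, but they are near-identical to other loci and their values are uncertain. Leaving these copies out, the next in order were GPT, alanine aminotransferase (1.24), SEC31B, a COPII coat protein (1.22), and ADAMTSL4-AS2 (1.21). RPS26 read 65.2, 68.6, 91.3 and 81.4 RPKM in sh65 and 63.4, 14.6 and 13.2 RPKM in shNT, so that shNT-a was close to sh65-1.

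The level of a few genes with a called splicing event was also called. AP1G2, an adaptor subunit of the trans-Golgi network, rose (8.52 to 9.87 RPKM in sh65 and 4.80 to 6.95 in shNT) and had a called event. TPD52L2 fell by 0.63 and 0.65 on the log2 scale in MOLM13 and MV4;11 and had an event called in both lines. NUMA1 (0.42, limma adjusted p = 0.188) and CLASP1 (0.48, adjusted p = 0.158), whose exons were called, had higher values in all 4 sh65 libraries than in the controls, but their levels were not called. BICD2, an adaptor for dynein and a trafficking gene with no called event, fell (1.90 ± 0.325 RPKM, SD, n = 4, and 3.43 ± 0.396 RPKM, SD, n = 3).

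Apart from the mitosis and G1/S genes and the trafficking genes AP1G2 and BICD2, 0 of 331 tested genes in the other 31 lists were called by limma, and 41 had an unadjusted p under 0.05. Over all 10156 tested genes 3.24% were called and 1851 had an unadjusted p under 0.05. Among the MBNL, CELF and RBFOX regulators, CELF1, which often acts against MBNL1, was at 6.22, 6.83, 9.36 and 10.1 RPKM in sh65 and 5.23, 5.06 and 5.66 RPKM in shNT (limma adjusted p = 0.202), and the median over the 8 tested regulators was 0.09. Medians over the genes of the study's own lists were 0.31 for the small GTPase regulators (0.03 against shNT-a alone), 0.06 for membrane trafficking (0.18) and 0.11 for the MBNL1 targets it names. The median over 14 myotonic dystrophy targets was 0.24 (0.13 against shNT-a alone). The MLL fusion program had a median of 0.20 over 16 genes and the MLL and SETD1 complexes 0.21 over 20, where AFF1, a subunit of the super elongation complex, was at 0.51 (adjusted p = 0.148). Against shNT-a alone these medians were 0.04 and 0.16. Medians were 0.18 over 14 myeloid markers (-0.11 against shNT-a alone), -0.23 over 12 granule proteins (-0.36), -0.12 over 8 myeloid transcription factors (-0.16), -0.10 over 12 SR proteins (0.06) and -0.18 over 17 hnRNP proteins (0.05). The inflammatory list had a median of -0.49 over 9 genes and 0.11 against shNT-a alone, the interferon response -0.43 and -0.08, the unfolded protein response -0.38 and 0.33, heat shock -0.23 and 0.32, and the integrated stress response -0.54 and -1.05. TNF read 12.6, 17.4, 5.75 and 6.80 RPKM in sh65 and 21.2, 28.3 and 15.3 RPKM in shNT (adjusted p = 0.211), with overlap between the groups. For p53 targets, cholesterol synthesis, glycolysis and hypoxia, oxidative phosphorylation, ribosomal proteins, lysosome, HLA class II, FLT3 and STAT5 targets, the BCL2 family and histone genes, medians lay between -0.14 and 0.11. Against shNT-a alone they lay between -0.60 and 0.26, the lowest being glycolysis and hypoxia (-0.60), cholesterol synthesis (-0.51) and the FLT3 and STAT5 targets (-0.31). Within glycolysis, LDHA was at 112.3, 115.7, 114.2 and 114.6 RPKM in sh65 and 155.8, 158.4 and 155.4 RPKM in shNT (-0.45, adjusted p = 0.143), under the 1.5-fold threshold.

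Markers of cell types were read to check the labelled line. Summed over 16 myeloid markers, the level was 1024 to 1148 RPKM in sh65 and 1012 to 3337 RPKM in shNT, and 14 of the 16 reached a mean of 1 RPKM. Erythroid markers summed to 38.3 to 59.4 RPKM in sh65 and 28.3 to 72.3 RPKM in shNT, from TFRC and EPOR, while HBB, which defines red cells, stood at the floor value of the file in all 7 libraries. Megakaryocyte (0.368 to 1.55 RPKM in sh65), B cell (0.663 to 2.43) and fibroblast (0.497 to 0.810) sums were near 0 in sh65 and reached at most 3.28 RPKM in shNT. The T cell sum was 3.28 to 13.0 RPKM in sh65 and 1.46 to 5.64 RPKM in shNT, in sh65 mostly CD3D (12.2, 8.10, 3.02 and 2.90 RPKM and 4.16, 0.769 and 1.17 RPKM). CD2 was at its floor in all 7, and CD3E and CD3G stayed at or under 0.0687 RPKM.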

How the data were processed

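RNA from MOLM13 cells with sh65 (4 libraries) and shNT (3) was compared, and 12 further libraries (MV4;11 with sh65 and shNT, MOLM13 with sh64 and earlier shNT, 3 each) were used beside them. The genes, events and gene lists described were chosen with earlier results of these data known.

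The authors prepared stranded paired-end libraries, aligned reads to GRCh37 with STAR and ran AltAnalyze. The deposited expression values are RPKM per gene, in which an absent gene carries a small floor value instead of 0, and the deposited splicing values are PSI, a fraction from 0 to 1 per junction event. No read counts were used, so depth in reads is unknown and no counting interval can be given; the precision is that of the number of libraries. Of 42499 junction ends, 97.4% were GRCh37 exon edges of the annotation. Of 22391 genes, 21587 received a symbol from the annotation and 283 from the splicing file. The splicing file held 100814 events in 29031 clusters.

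PSI was multiplied to percent. Introns, cassette exons and alternative 3′ and 5′ sites with a direction were turned so that higher means inclusion, and other event types were left as deposited. The gene test used limma 3.58.1 in R 4.3.3 (empirical Bayes, 2 groups, no covariate) on log2(RPKM + 1), kept genes whose mean reached 1 RPKM in sh65 or shNT, and called those at p at or under 0.01 and 1.5-fold. The splicing test used limma on PSI, kept events measured in over 50% of libraries in both groups, and called those at p at or under 0.01 and over 10 points. A cluster was called where any of its events passed, and the passing event with the lowest p stood for it. Benjamini-Hochberg adjusted p-values are over all tested genes or events. Differences between hairpins and between lines are limma interactions over 4 groups. Single values per library were tested by two-sided exact permutation. Sequences were read from GRCh37 with pysam 0.24.0, and the fits were tested on simulated data.

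Named genes were MBNL1, MBNL2 and MBNL3, the 12 largest rises and 12 largest falls without overlap, the 3 lowest p-values at or under 0.05 in each list, and calls shared with MV4;11. Named events were those with an adjusted p at or under 0.05, the 10 largest introns and 10 largest cassette exons and the 4 largest of each other type without overlap, events of genes in the study's lists, and calls shared with MV4;11. The text gives a selection of these, some are not reported here, and the MBNL1 exon, CD3D and the genes that differed between hairpins were named after their values were seen. Replicate numbers were taken to pair the sh64 libraries with their controls, since deviations from the group means correlated at 0.857, 0.806 and 0.890 within number. Across number, sh64 library 1 correlated at 0.748 with control 2, and sh64 library 2 at 0.661 with control 1. The values thus set number 3 apart and do not show that numbers 1 and 2 are separate pairs, a limit of all results with this block. Near-identical gene copies are uncertain in these values. Alternatives covered pseudocount, filters, scaling, control set, variance, thresholds, replicate block and leaving out each library. The control columns have no replicate number.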

Additional observations from a re-analysis of the deposited data

Results flagged for a closer look

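Among 48 named genes and 60 named events with values in the 4 sh65 libraries, 10 had a single library whose gap to the nearest of the others took up more of the range than Dixon's limit for 4 samples; chance alone would give about 1 in 20. In sh65-1, the library with the least MBNL1, the share of the range was 0.836 for UCHL5, 0.830 for PRDX3 and 0.979 for MCM7 (all lowest there), 0.856 for the level of AP1G2 and 0.844 for the NUMA1 exon (lowest). In sh65-2 it was 0.875 for the ATG9A intron, 0.966 for the DLL1 intron and 0.887 for the SRSF1 intron. It was 0.938 for TPD52L2 in sh65-4, where the event read 79.9% against 84.3 to 84.6% in the other libraries, and 0.897 for the ARHGEF40 intron in sh65-3, which read 28.4% against 15.9 to 17.2%.

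The effect of sh65 differed between MOLM13 and MV4;11 in 21 events (0.0304% of those tested, limma interaction, adjusted p under 0.05). Named ones were LRIG2 (adjusted p = 7.53e-05), OPLAH (0.00158), DLL1 (0.00279) and MROH6 (0.0167). The introns of OPLAH and DLL1 were at 0 in both groups of MV4;11, and the LRIG2 exon was at 100% in both.

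The effects of sh65 and sh64 in MOLM13 differed in 145 events (0.211%). The exons of DNM2 (7.19e-05), ACTN4 (0.000308), LRRFIP2 (0.0200), MBNL1 (0.0254), ARAP1 (0.0310), MAP3K4 (0.0322) and LRCH4 (0.0391) moved further with sh64. The ARAP1 exon, for example, changed by -18.2 points with sh65 and by -52.6 points with sh64. The LRIG2 exon (1.15e-05) and the MROH6 intron (0.00356) moved further with sh65, by 11.8 and 70.2 points against 0 and 3.50 points. Among genes, the level of MBNL1 (0.0445) fell further with sh64, and NPTN (0.000569), LITAF (0.0495) and SEC23A (0.0495) fell with sh65, with log2 differences of 0.56, 0.19 and 0.10 with sh64. The replicate block for the sh64 pairs raised the number of such genes from 10 to 50.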

How the results depend on the processing

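No paired analysis was possible because the sh65 and shNT libraries of MOLM13 share no replicate numbers. The count of called genes, 329 as reported, was 160 with no filter on low values (156 of them among the 329), 60 against shNT-a alone (24), 1 at an adjusted p under 0.05, and 157 to 898 on leaving out 1 library. With all 6 MOLM13 controls 324 were called (148), and quantile normalization gave 118 that rose and 179 that fell. The count of called clusters, 624 as reported, was 1102 with 1 variance across 9 groups (431 of them among the 624), 248 over 20 points, 17 at an adjusted p of 0.05, 392 with no library at 0 or 100%, and 520 to 1045 without 1 library; letting only the event with the lowest p pass gave 587, and counting every event 916. The share of called introns retained more was 100% at the adjusted threshold, 89.7% with no library at 0 or 100%, 65.1% against shNT-a alone and 76.8 to 96.6% without 1 library, and that of cassette exons included more was 100% at the adjusted threshold. The intron difference over introns above 0 in every library was 2.97 points, past no threshold, and that of cassette exons became -0.178 points over all measured events and -0.00600 points over those above 0. MBNL1 passed the gene rule with 6 controls (-0.67); with the 9-group variance its p (0.00146) passed but its difference (-0.57) stayed under 1.5-fold. The mitosis genes that fell numbered 2 with no filter, 2 to 17 without 1 library, 0 against shNT-a alone, 0 with 6 controls and 0 with the 9-group variance in limma, where 10 had an unadjusted p under 0.05; the G1/S median was -0.20 against shNT-a alone. The replicate block moved the genes that differed between hairpins from 10 to 50, called genes that repeated with sh64 from 6 to 70, and clusters that repeated in MV4;11 from 33 to 19. It gave 172 events between hairpins, 28 between lines and 75 repeated genes in MV4;11. In MV4;11 the numbers did not pair the libraries (correlations -0.655, 0.0492 and -0.577). The cause of these shifts was not tested, except that an adjusted or stricter threshold passes fewer features by construction. Across all alternatives, named genes kept their side of the threshold in 534 refits, lost it in 163 and gained it in 2, and named events in 623, 137 and 13; no called direction reversed. Fits with shNT-a alone, with libraries at 0 removed or with the other cluster reading were chosen after seeing the data.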
